A study of Mus musculus with 5 samples.

Results

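Yy1, the mouse gene for the zinc finger transcription factor YY1, carried 11 peaks of the insulator protein CTCF within its body of 27204 bp, more than any other protein-coding gene of similar length. The gene is 1 of 21779 protein-coding genes examined and was chosen by this number, a measured value, so its peak number, peak spacing and covered length are given as descriptions, with no test. Its peaks are those whose midpoint falls between its RefSeq start and end on mm10 (gene ID 22632, chr12:108792945-108820148, plus strand). They are 11 of the 22756 peaks listed for the series.

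The peaks came from chromatin immunoprecipitation of CTCF in NIH3T3 cells, a line of mouse embryonic fibroblasts. Every library came from cells carrying H2B-mCherry, the rtTA3G transactivator and a TRE3G-controlled CDX2 gene that doxycycline switches on; CDX2, a homeobox protein, directs gene activity in gut epithelium and in the trophectoderm. CTCF was precipitated from cells exposed to doxycycline for 6 h (2 libraries) and from uninduced cells (2 libraries), and uninduced cells also gave 1 library of input chromatin. A doxycycline dose of 500 ng/µL stands in the labels, and its unit was not checked. The peaks of both conditions had been merged into 1 list of positions with no heights, so neither the effect of CDX2 nor the spread between libraries could be measured at Yy1, and the number of reads behind each peak is unknown.

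CTCF binds DNA through an array of zinc fingers, stops cohesin as it extrudes chromatin loops, and marks loop anchors, insulators and many promoters. YY1 binds a short motif at active promoters and enhancers, can pair with itself to bring such sites together, and also works with Polycomb proteins and with the INO80 chromatin remodeller. It is produced in nearly all cell types and is required in the early mouse embryo. Both proteins are thus known for linking distant stretches of chromatin.

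The RefSeq promoter window of Yy1 (GRCm38.p6, chr12:108793047-108793346, plus strand) holds 250 bases before the transcript start and 50 after it, and it is shown because the peaks of the gene begin just beyond it. No peak touched this window; the first peak of the body started 57 bp past its last base and 106 bp past the transcript start. A window in the upstream flank is shown for contrast, that of the long non-coding RNA gene Gm33628 (chr12:108758142-108758441, minus strand), because a peak of the locus did touch it. Both are printed 5′ to 3′ along their own gene. Capitals in Yy1 mark the letters CCCTC and AGGGGGC, pieces of the CTCF motif, on either strand, and capitals in Gm33628 mark the 184 bases that lie under the peak.
Yy1: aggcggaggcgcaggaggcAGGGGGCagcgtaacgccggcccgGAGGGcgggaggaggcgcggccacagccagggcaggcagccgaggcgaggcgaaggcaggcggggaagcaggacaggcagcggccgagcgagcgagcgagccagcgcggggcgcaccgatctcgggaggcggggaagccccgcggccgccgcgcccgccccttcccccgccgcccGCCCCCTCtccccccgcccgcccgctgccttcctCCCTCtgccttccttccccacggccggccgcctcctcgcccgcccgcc
Gm33628: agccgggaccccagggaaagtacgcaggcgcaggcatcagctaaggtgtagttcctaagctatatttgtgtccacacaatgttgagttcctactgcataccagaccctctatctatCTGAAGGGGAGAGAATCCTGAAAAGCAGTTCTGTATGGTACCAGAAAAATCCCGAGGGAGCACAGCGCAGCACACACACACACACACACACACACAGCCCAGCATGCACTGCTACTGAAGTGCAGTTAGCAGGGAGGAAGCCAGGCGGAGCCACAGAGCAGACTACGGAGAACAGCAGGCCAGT

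AGGGGGC occurred 2 times in the Yy1 window, 1 time on each strand, and not in the Gm33628 window. CCCTC occurred 3 times in the Yy1 window and 2 times in the Gm33628 window, and in Yy1 1 of these overlaps an AGGGGGC match on the other strand. AGGGGGC is present in 10.6% and CCCTC in 66.0% of the 32817 promoter windows, both strands searched. AGGGGGC stood in 31.1% of the windows that a peak touched and in 9.84% of those that none touched. Touched windows were also richer in G and C, with a median of 60.7% against 52.3%, and the part of base composition in this difference was not tested. The Yy1 window was 81.0% G and C, higher than 99.3% of all windows, and the Gm33628 window was 53.3%. The YY1 core motifs CCATNTT and CCATNTG, present in 16.1% and 13.7% of all windows on either strand, had no match in either window shown. Of all promoter windows, 3.58% were touched by a peak, so an untouched window, as at Yy1, was the usual case. A peak within 1 kb of a gene end, which Yy1 did have, was found at 12.0% of all protein-coding genes.

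The 11 peaks ran from just after the transcript start to the last part of the gene and ended in a very wide one. The first, at chr12:108793403-108794063, was 661 bp wide. The next 6 were 173, 595, 188, 504, 474 and 345 bp wide and lay 2291, 3306, 5218, 6839, 8278 and 9605 bp past the transcript start. Together these 7 formed a series over 9844 bp in which wide and narrow intervals alternated at the front. A single peak of 225 bp followed 13179 bp past the transcript start, near the middle of the gene. The last 3 peaks, of 262, 336 and 2708 bp, began 17872, 18540 and 19661 bp past the transcript start and filled a stretch of 4497 bp. The widest was chr12:108812958-108815665, and behind it the last 4483 bp of the body held no peak. By midpoint 7 peaks fell in the front part of the gene and 4 in the back part, when the body is cut at its middle.

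**Figure D1:**
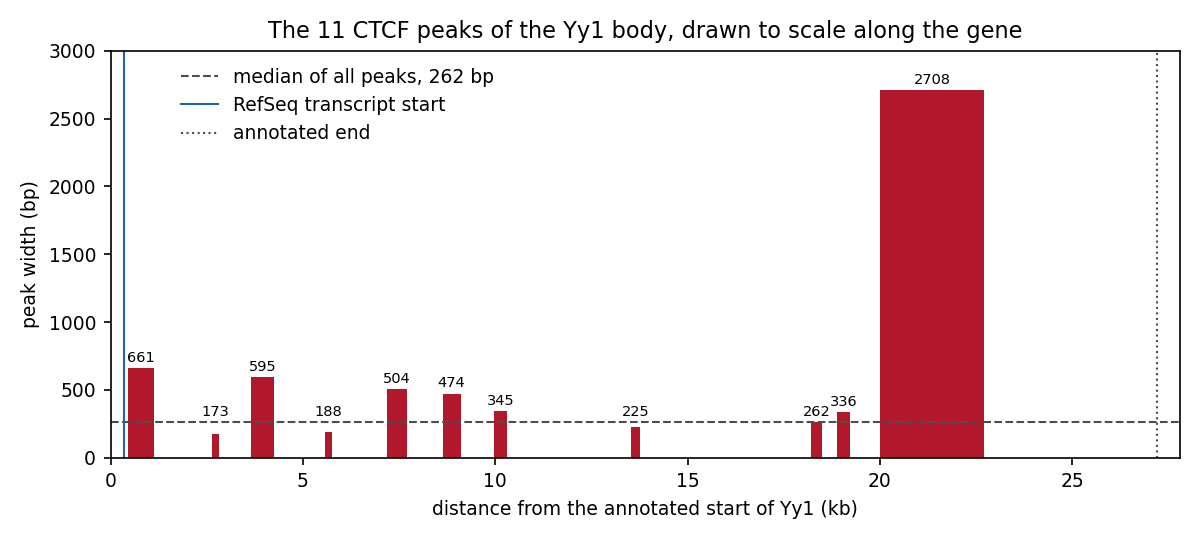
The horizontal axis is the distance from the annotated start of Yy1 in kb and the vertical axis is peak width in bp; each bar is 1 CTCF peak, as wide on the horizontal axis as the peak, with its width in bp written above. The last peak, at 2708 bp, stands far above the other 10, which range from 173 to 661 bp, and 7 of the 11 lie in the front part of the gene.

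The widths differed strongly among themselves. The widest peak was 4.10 times as wide as the next, and it alone made up 41.8% of the bases under peaks in the gene. The median of the 11 was 345 bp, against 262 bp for all listed peaks (quartiles 217 and 317 bp). Of the 11, 4 were 500 bp or wider (36.4%), against 4.05% of all peaks, and 8 were at least 262 bp wide, against 50.0% of all peaks. At the other end the 173 bp peak was close to the narrowest of the whole list, 170 bp, and 99.6% of all peaks were at least as wide. Yy1 therefore held both very narrow and very wide intervals.

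Crowding and width moved together throughout the list, and the part of crowding in the widths at Yy1 was not tested. Of the 11 peaks, 9 had their nearest neighbour within 2 kb, midpoint to midpoint, and these 9 had a median width of 345 bp. The 2771 other peaks of the list with a neighbour that close had a median of 279 bp, and 6.71% of them were 500 bp or wider. Where the nearest neighbour lay 100 kb or more away, the median of 2247 peaks was 234 bp and 1.29% were 500 bp or wider. The median of the 9 at Yy1 thus stood above that of other peaks with a neighbour within 2 kb. The 2 remaining Yy1 peaks, of 225 and 2708 bp, had their nearest neighbour 3514 and 2307 bp away. The widest peak was thus not among the 9. Distance between midpoints includes part of a peak's own width, and from edge to edge the gap before the 2708 bp peak was 785 bp.

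Spacing in the gene was short and uneven. The 10 gaps between neighbouring midpoints had a median of 1744 bp and ran from 705 to 4711.5 bp, and all 10 were shorter than the median gap of the whole list, 32837 bp. The 6 gaps within the front series were 1941, 1226, 1708.5, 1779, 1424 and 1262.5 bp, a narrow band. The peak near the middle of the gene stood apart, 3514 bp from the one before it and 4711.5 bp from the one after. From edge to edge the gaps ran from 406 to 4468 bp with a median of 1126 bp. Peaks covered 6471 bp, or 23.8% of the gene body.

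The peaks could not be placed in exons or introns, since exon positions of Yy1 were not used here; only the ends of the gene and its transcript start were. Whether the peaks coincide with the exons, and so with spliced sequence, was not tested, and the list holds no reads from which the source of a peak could be checked. With respect to those, the first peak began 458 bp inside the annotated gene start and the last ended well before the annotated gene end. The nearest peaks outside lay 34620 bp before the gene and 7272 bp after it.

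Directly outside the gene the peaks thinned out. Against the 11 peaks inside Yy1, the 200 kb before it held 3 and the 200 kb after it held 2. That is 404.4 peaks per Mb in the body and 12.5 per Mb over both flanks, a ratio of 32.3, which was 20.2 with 100 kb and 21.3 with 500 kb on each side. The upstream peaks were 235, 230 and 472 bp wide and the downstream ones 271 and 287 bp. The median was thus 345 bp in the body and 271 bp in the flanks, and 5 of the body peaks were wider than any in the flanks. Neighbouring peaks within a flank lay 48789.5 and 51731 bp apart upstream and 75545 bp apart downstream. Peaks covered 23.8% of the body and 0.374% of the flanks. Beyond the flanks the 2 sides differed. The next 300 kb upstream held 14 peaks, or 46.7 per Mb, the nearest of them 229429 bp before the gene, while the next 300 kb downstream held 0 and the next peak there lay 573705 bp after the gene.

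**Figure D2:**
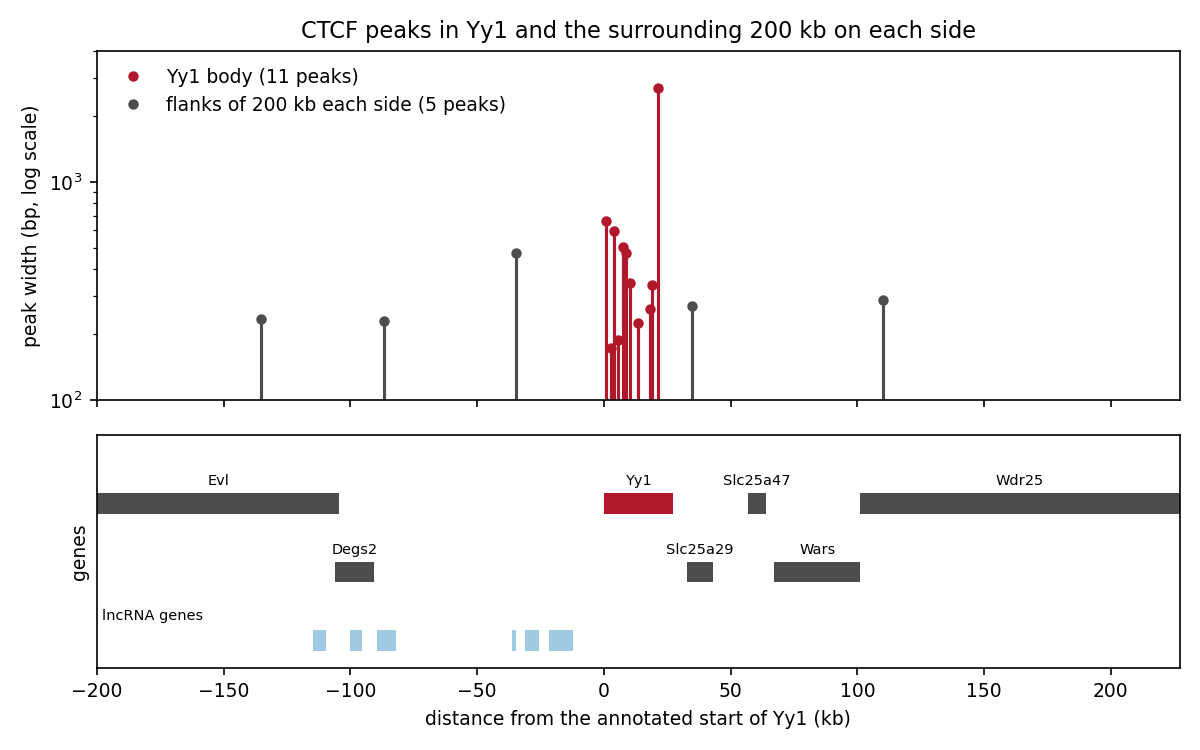
In the upper panel each stem is 1 CTCF peak, placed by its distance in kb from the annotated start of Yy1, with its width in bp on a log scale; the lower panel shows protein-coding genes as bars, Yy1 in red, and long non-coding RNA genes in light blue. The 11 red stems of Yy1 crowd into 27.2 kb, while the 5 grey stems of the flanks are spread over 400 kb.

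Of the 6 neighbouring protein-coding genes, 3 held a peak and none held more than 2. Of all protein-coding genes, 29.5% had a body peak, so a gene without one was the usual case. Slc25a29, a mitochondrial carrier of basic amino acids 5730 bp downstream of Yy1, had 1 peak of 271 bp in a body of 9999 bp. Evl, which encodes an Ena/VASP regulator of actin filaments, had 2 peaks of 235 and 226 bp in 133836 bp, of which the second lies beyond the 200 kb. Wdr25, a WD repeat gene of 134303 bp, had 1 peak of 287 bp. No peak midpoint was listed in Degs2, a sphingolipid desaturase and hydroxylase gene, or in the mitochondrial carrier gene Slc25a47. Wars, the gene of cytoplasmic tryptophanyl-tRNA synthetase, held none either in its 34146 bp. Long non-coding RNA genes held the remaining flank peaks: of 6 such genes in the window, Gm33628 had the 472 bp peak, whose midpoint lay 101.5 bp from its transcript start, and Gm40572 had the 230 bp peak. The microRNA genes Mir342 and Mir345, also in the window, held none. The share of all long non-coding RNA genes with a peak was not counted.

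Among protein-coding genes of similar length, Yy1 stood at the top by a wide margin in peak number and in covered length. Similar length means from 0.8 times that of Yy1 to the same factor above it, which left 2683 other genes of 21768 to 34000 bp. Yy1 had 11 body peaks, while 33.4% of the others had at least 1, 0.373% (10 genes) had 5 or more, and none had over 6. Among those others 1786 had no peak, 610 had 1, 193 had 2, 69 had 3 and 15 had 4. Peaks covered 23.8% of Yy1, against at most 7.60% of any other and a median of 1.15% among the 897 others with a peak. On chromosome 12 alone 21 of 67 such genes had a peak and the highest number was 2.

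**Figure D3:**
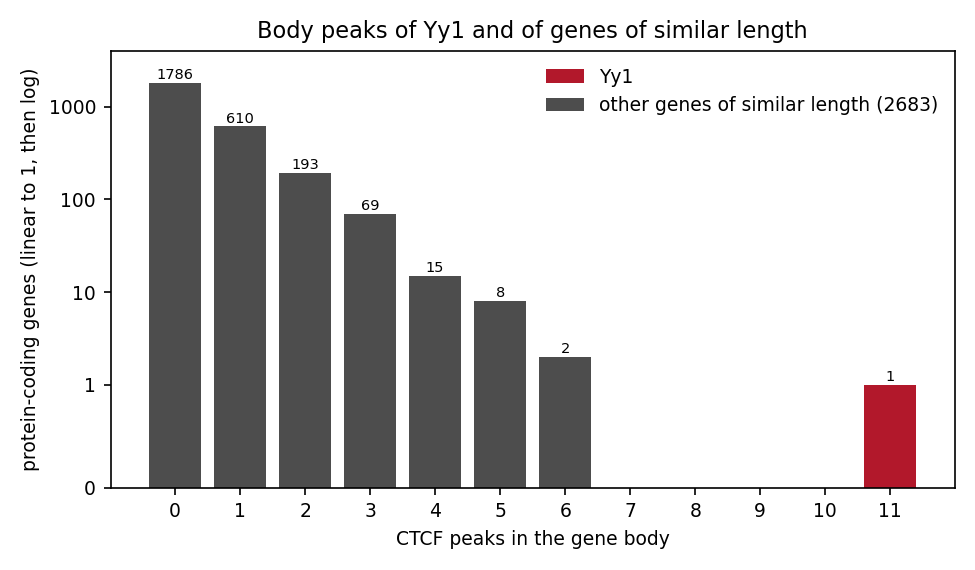
The horizontal axis is the number of CTCF peaks in the gene body and the vertical axis the number of protein-coding genes, linear to 1 and logarithmic above; the red bar is Yy1 and the grey bars are the 2683 other genes of similar length. The grey bars fall from 1786 genes without a peak to 2 genes with 6, and no gene lies between these and Yy1 at 11.

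Since Yy1 was chosen by its peak number, its standing in number was set by the choice. Against all genes of similar length, median width and median gap set Yy1 apart less than number did. Its median width of 345 bp was exceeded by that of 157 of the 897 other genes with a peak, 98 of which had a single peak, but by only 1 of the 10 genes with 5 or more. The median of these gene medians was 272 bp. Of the peaks in Yy1 36.4% were 500 bp or wider, against 5.18% of the 1312 peaks in the bodies of the other genes, which, counted once each, had a median width of 271 bp. The median gap of 1744 bp in Yy1 was undercut by 37 of the 287 other genes with at least 2 peaks (12.9%), whose middle value was 5835 bp. In a gene with 2 peaks this value is a single gap, and many of the 37 were such genes. Of the 10 genes with 5 or more peaks, only 1 had a smaller median gap than Yy1. Its widest peak, at 2708 bp, was above the widest in any other gene of that length, 1202 bp in Smo, the gene of the Hedgehog signal transducer Smoothened. After Smo came Arhgap27 with 1056 bp, Dgka, a diacylglycerol kinase gene, with 832 bp, Amz1, a metalloprotease gene, with 817 bp and Ccnd2, the cyclin D2 gene, with 754 bp.

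The genes of similar length with the next highest numbers had fewer peaks in all than the front series of Yy1 alone. Pdzd7, a scaffold gene of inner ear hair cells, had 6 peaks of 311 to 560 bp, with a median width of 374 bp, and they covered 7.60% of its body. Its median gap was 1019.5 bp, the only one among these 10 genes below that of Yy1, but its longest gap was 10520 bp. Rhbdf2, which encodes the inactive rhomboid iRhom2, also had 6 peaks, of 190 to 533 bp, with a median gap of 4529 bp. The other 8 had 5 peaks each: Arhgap27, Amz1, the Mediator subunit gene Med24, the integrin gene Itgb4, the collagen gene Col8a2, the kinase gene Cdk18, Suds3, a subunit gene of the Sin3 corepressor, and Fam186b. Their median gaps ran from 2333 bp in Suds3 to 7323 bp in Amz1. Of these 10 genes, Pdzd7 and Rhbdf2 were nearest to Yy1 by peak number, each with 5 fewer, and Suds3 was nearest by median gap, 589 bp longer. Yy1 had 4 peaks of 500 bp or over, and none of the 10 had more than 1.

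**Figure D4:**
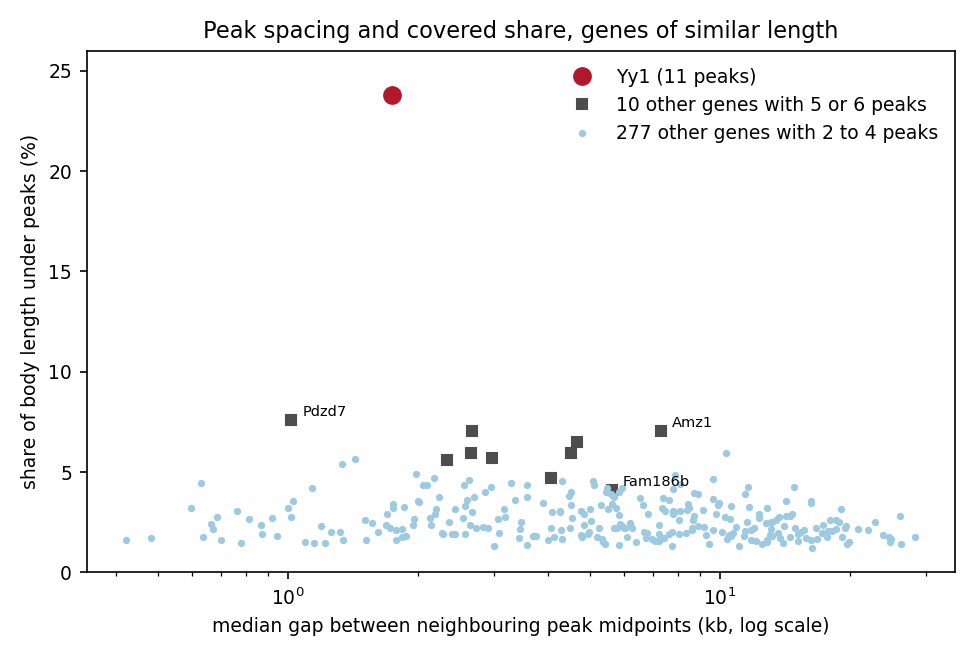
The horizontal axis is the median gap between neighbouring peak midpoints in kb on a log scale and the vertical axis the percent of the gene body under peaks; points are Yy1 (red), 10 other genes of similar length with 5 or 6 peaks (squares) and 277 with 2 to 4 peaks (dots). Yy1 lies at 23.8% covered, above all other points, which end at 7.60%, while its median gap falls within the range of the others.

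Without any limit on length, 21 other protein-coding genes had 11 or more body peaks, and the shortest of them, the myosin gene Myo18a with 12 peaks, was 102749 bp long, or 3.78 times the length of Yy1. In total bases under peaks Yy1 came sixth of all 21779 genes with 6471 bp. The genes above it were Slc39a11 with 8781 bp, Asic2 with 7998 bp, Cacna1a with 6604 bp, Dnah17 with 6575 bp and Rbfox3 with 6556 bp, all more than 100 kb long. Of 13919 genes of at least 10 kb, only Cbx6, which encodes a chromobox protein of Polycomb repressive complexes, had more body peaks per length than Yy1, which had 4.04 per 10 kb, against 4.79 in Cbx6. Cbx6 reached this with 5 peaks in 10436 bp, of which peaks covered 24.8%. By covered share 28 of all protein-coding genes stood above the 23.8% of Yy1, all of them shorter than it, at most 14352 bp. Only 2 of the 28 were at least 10 kb long, Cbx6 and 1600014C10Rik, a gene model with 28.4% covered.

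No other 11 neighbouring peaks of the list lay as close together as those of Yy1. The run length of 11 was taken from Yy1 itself, which was chosen by that number, and no other length was tried. From the first to the last midpoint they spanned 20.6 kb, while the median span of the 22545 runs of 11 consecutive peaks was 594.5 kb. The next tightest separate run, on chromosome 7 around 1600014C10Rik, spanned 24.6 kb, had a median width of 319 bp and had 5 peaks of 500 bp or over. Only 5 peaks of that run lay in the body of 1600014C10Rik, which is 14352 bp long. The run around the T-box gene Tbx2 on chromosome 11 followed with 32.5 kb, a median width of 346 bp and a widest peak of 521 bp, and a run near the start of chromosome 4 with no protein-coding gene spanned 32.9 kb. Of these 4 runs, the one of Yy1 was the only one that lay wholly within a single gene body.

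**Figure D5:**
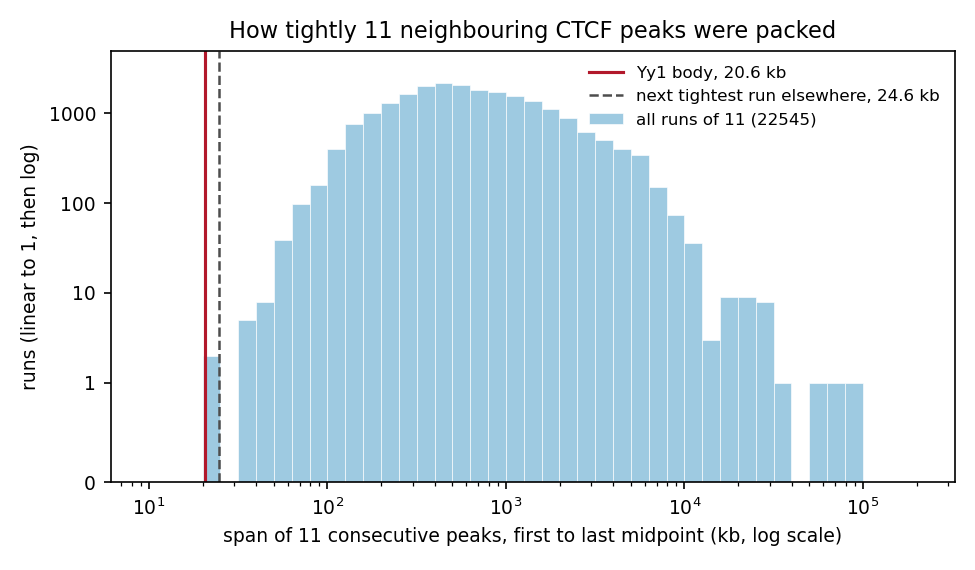
The horizontal axis is the span of 11 consecutive CTCF peaks from first to last midpoint, in kb on a log scale, and the vertical axis the number of such runs, linear to 1 and logarithmic above; neighbouring runs share peaks. The red line marks the run in the Yy1 body at 20.6 kb, at the left edge of all 22545 runs, and the dashed line the next tightest separate run at 24.6 kb.

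The widest peak of Yy1 was among the widest of the whole list. It ranked sixth of 22756, and 13 peaks were 2 kb or wider. All 5 wider peaks lay within the first 20 Mb of their chromosomes, and none of these 5 had its midpoint in a protein-coding gene. Of the 13, 9 lay within the first 20 Mb of an autosome or of X. Inside a protein-coding gene body were 2 of the 13, the one in Yy1 and one of 2360 bp in Rpl7a. Rpl7a is a ribosomal protein gene, and this was its single body peak. The shares of all peaks in such bodies or in these first 20 Mb were not counted. In Yy1, unlike Rpl7a, the wide peak stood beside 10 others in the same body. A very wide peak among many was not particular to Yy1. The tight run of 11 near the start of chromosome 4, outside protein-coding genes, held a peak of 3769 bp.

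Lists of YY1 relatives and of looping, INO80, Polycomb, corepressor and coactivator genes were also examined. None of their members besides Yy1 had more than 3 body peaks. Because Yy1 was chosen for its 11, this contrast with Yy1 was set by the choice. The lists hold 43 genes besides Yy1, all found in the gene table, and 17 of them (39.5%) had a body peak, against 29.5% of all protein-coding genes; with a median length of 32158 bp they are also longer than all such genes, at 17217 bp. The family relatives Yy2, a retroposed copy of the YY1 gene, and Zfp42, which encodes the stem cell factor REX1, had none in their bodies and none up to 10 kb outside. Of 15 genes for looping factors 6 had a body peak, led with 2 each by Ctcfl, the germ cell relative of Ctcf, by the cohesin loader gene Nipbl and by the LIM domain cofactor gene Ldb1, while Ctcf itself had none. Of 13 INO80 genes 6 did, with 2 each in Ino80d and Nfrkb. Of 10 Polycomb and corepressor genes 3 did, which were the deacetylase gene Hdac1 with 3 peaks, the most of any of the 43, and the MBT domain genes L3mbtl2 and Sfmbt2 with 2 each. Of 3 coactivator genes, Ep300 and Crebbp had 1 each. A peak within 1 kb of a gene end was found at 4 of the 43 genes (9.30%), against 12.0% of all protein-coding genes, and at Yy1 it was the first of the 11.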

How the data were processed

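CTCF was profiled by chromatin immunoprecipitation and paired-end sequencing of 37 nt reads, per the labels' protocols, with Drosophila chromatin added for normalization. Of the 5 libraries, 2 per condition were of CTCF and 1 was of input chromatin. Tools listed by the submitters' processing notes are STAR, MACS2 and Picard, and the builds are mm10 and dm6; the sources used here do not give versions, the peak threshold, the merging rule or any use of the spike-in. In the deposited list are the chromosome, start and end of each peak, with no height, score or sample, so depth is unknown and values carry no replicate error. Coordinates are counted from 1. Genes came from RefSeq for GRCm38.p6, and of 49997 genes 49603 on the assembled nuclear chromosomes were kept. Among those dropped were 340 whose listed start was under 3 Mb on an autosome or on X, where no peak is listed. What these low positions stand for was not checked. The 1 mitochondrial peak entered only widths and counts over the whole list. Promoter windows are RefSeq's; both Yy1 and Gm33628 matched by symbol. Exon positions were not used here.

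A peak belonged to a gene if its midpoint lay in the body. Gaps are between neighbouring midpoints. Covered length counts peak bases within the body. Named genes were Yy1, all protein-coding genes reaching into the 200 kb on either side, the 10 of similar length with most body peaks, the 5 with most covered length and the 5 with the widest peak, Yy2, Zfp42, Ctcf and up to 6 list members with most peaks. Non-coding genes of the window, Sfmbt2, Ino80d, Nfrkb, Ep300, Crebbp, the other genes with 11 or more peaks or with more covered bases, Cbx6, Rpl7a and the genes of other tight runs were named after their values were seen. Yy1 and the lists were chosen with earlier results of these data known. Counting functions were tested on simulated data. Similar length ran from 0.8 times that of Yy1 to the same factor above it. Python 3.11.15, pandas 2.3.3 and NumPy 2.4.6 were used.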

Additional observations from a re-analysis of the deposited data

How the results depend on the processing

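Yy1 kept 8 to 11 body peaks, and the highest number among genes of similar length, under each alternative run: any overlap in place of the midpoint, only peaks of at least median width, peaks closer than 500 bp merged, and a length limit of 0.5 to 2 times Yy1. With only peaks of at least median width, its median width was 489 bp, its median gap 2307 bp, its covered share 21.6% and its rank by median width 46. With close peaks merged these were 489 bp, 1779 bp, 25.3% and 55. Without its widest peak the median width was 340.5 bp, the covered share 13.8%, still the highest among genes of similar length, and the rank by median width 173, against 158 as reported and 176 by any overlap. With the wider length limit, which left 7718 other genes, it ranked second by covered share and 466 by median width, more genes being compared. Every rank by median width counts only genes with a peak, since the others have no width. For the rank of 158 these were 897 other genes, and under the alternatives their number was not counted. The density ratio to the flanks was 20.2 with 100 kb and 21.3 with 500 kb on each side, against 32.3. Edge to edge the median gap was 1126 bp. With 10 kb added on each side 24 of the 43 listed genes had a peak (55.8%), against 50.8% of all protein-coding genes.

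No paired analysis was possible because the peaks of both conditions are merged in 1 list with no sample columns. For the same reason no library could be left out. The alternative for exons was not run, since exon positions were not used here. The list has no heights, so how firmly each of the 11 peaks was called is unknown, and a stretch without a peak may have lacked reads.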
